A study of Rattus norvegicus with 9 samples.

Results

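Glutamate transport and the glutamate-glutamine cycle of the rat prefrontal cortex were followed in 6 genes: the vesicular transporters Slc17a7 and Slc17a8, the uptake transporters Slc1a1, Slc1a2 and Slc1a3, and the glutamine synthetase gene Glul. They were chosen by name from the 37209 genes of the table of read counts, and all 6 were counted often enough to be tested. None of the 6 was differentially expressed between groups at a fold change over 1.5. The clearest pattern was a graded level of Slc17a7. It was highest in Control rats, intermediate in rats separated from their mothers and lowest in separated rats that later received electroacupuncture (EA). This order was singled out after the values had been seen. Neither single step of it passed the correction for the number of genes tested. Slc1a2, the main glial transporter, had a lower level in every MS+EA rat than in any MS rat after TMM scaling of the libraries. By total counts this did not hold. Of all genes tested, 17.9% had no overlap between these groups after TMM scaling. The difference of Slc1a2 did not pass the correction for the number of genes tested. Glul and Slc1a3 had the same mean level in Control and MS rats.

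Each group held 3 male Wistar rats of 14 weeks, and total RNA of the frontal cortex, depleted of rRNA, was sequenced. The Control rats (A1, A2 and A6) stayed with their mothers until weaning. Rats named B3, B4 and B6 (MS) and C3, C10 and C16 (MS+EA) had been kept from their mothers for 4 h a day from postnatal day (PND) 1 to PND 21 (maternal separation, MS). The MS+EA rats were treated at the points Baihui and Yintang every other day between PND 61 and PND 81 under isoflurane, and rats of the Control and MS groups received the anaesthesia alone. The litters from which the rats came are not given, so that rats of a group may share a mother, and no sham-stimulated rats were among those sequenced. Between 12479905 and 19007907 reads were counted per rat, and each of the MS+EA rats had fewer than any other rat. The share of counts on lncRNA genes was 0.798% to 0.908% in Control, 0.852% to 0.964% in MS and 0.976% to 1.14% in MS+EA rats. The part of this difference in the results was not tested.

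Glutamate is the main excitatory transmitter of the cortex. Vesicular glutamate transporters load it into synaptic vesicles, and after release it is taken up mostly by astrocytes through sodium-driven transporters. Glutamine synthetase in astrocytes then turns glutamate and ammonia into glutamine, which passes back to neurons through amino acid transporters and is turned into glutamate again there. The cycle keeps extracellular glutamate low and refills the transmitter pool.

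Levels are given as CPM, the reads of a gene scaled to a common library size after TMM normalization, so that rats can be compared for a gene. Transcript lengths were not used here, so levels of different genes are not compared per length. By mean read count, Glul was rank 13 among all genes, Slc1a2 rank 29, Slc17a7 rank 47 and Slc1a3 rank 121. Slc1a1 and Slc17a8 were ranks 11451 and 14047. These 6 genes held 0.647% ± 0.0453 (SD, n = 3) of all counts in Control rats, 0.636% ± 0.0240 in MS rats and 0.588% ± 0.0506 in MS+EA rats, and the groups overlapped.

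The promoters of Slc17a7 and Slc1a2 are shown because these were the members with the smallest p-values when MS+EA rats were compared with MS rats. Both come from RefSeq on the GRCr8 build, whereas the reads were mapped to Rnor 6.0. For Slc17a7 the sequence at chr1:104785955-104786171 on the plus strand, 217 bases, ends just before the first annotated base of the gene, and for Slc1a2 the sequence at chr3:109459859-109460108 on the plus strand holds the 250 bases before an annotated start. Capitals mark the GC box, GGGCGG on either strand, where matches may overlap.
Slc17a7: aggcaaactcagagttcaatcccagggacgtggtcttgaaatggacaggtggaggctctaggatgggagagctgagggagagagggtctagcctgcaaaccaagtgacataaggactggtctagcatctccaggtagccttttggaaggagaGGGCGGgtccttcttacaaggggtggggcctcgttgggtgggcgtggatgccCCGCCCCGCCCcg
Slc1a2: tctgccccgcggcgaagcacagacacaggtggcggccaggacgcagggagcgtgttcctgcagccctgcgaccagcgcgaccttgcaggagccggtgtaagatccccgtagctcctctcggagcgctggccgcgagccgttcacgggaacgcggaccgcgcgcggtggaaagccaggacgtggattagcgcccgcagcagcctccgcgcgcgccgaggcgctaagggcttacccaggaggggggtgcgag
The Slc17a7 window held 3 GC boxes, of which those written as CCGCCC overlap by 1 base, and the Slc1a2 window held 0. A GC box was found in 29.2% of 33469 rat promoters cut to 217 bases and in 30.5% of those of 250 bases. The E-box CACGTG was in neither window and in 5.04% and 5.59% of promoters at these lengths. The glucocorticoid half-site AGAACA, searched on both strands, was in neither window and in 15.4% and 17.5% of promoters. RefSeq lists another Slc1a2 promoter, at chr3:109507697-109507946 on the plus strand, which held 1 AGAACA, 0 GC boxes and 0 E-boxes and is not printed. These matches describe the letters of the windows only, since nothing bound to them was measured.

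Slc17a7 encodes VGLUT1, the vesicular transporter of most cortical excitatory neurons. The Control rats had 1635, 1532 and 1607 CPM, MS rats had 1436, 1439 and 1498 CPM, and MS+EA rats had 1225, 1337 and 1304 CPM. Every Control rat lay above every MS rat, and every MS rat above every MS+EA rat. The group means were 1592 ± 53.3, 1458 ± 34.9 and 1289 ± 57.6 CPM (SD, n = 3). Of all 16837 genes tested, 0.992% had this order of groups without overlap, and the order was singled out after the values had been seen. Genes with any other full order of the groups were not counted, so the share with some graded order is larger or equal and is not known. It also held when counts were divided by the total count of each rat in place of the TMM library size.

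In edgeR's quasi-likelihood test, the level of Slc17a7 in MS+EA rats was 0.810 times that in Control rats. This log2 fold change of -0.30 (SE 0.0629, 95% interval -0.44 to -0.17) had an adjusted p of 0.0207 over all genes tested. This is under the 1.5-fold limit by which genes were called, so Slc17a7 was not counted as differentially expressed. The adjusted p of edgeR rose above 0.05 without Control rat A1 (0.0926), without Control rat A6 (0.0812) and without MS+EA rat C16 (0.0529), while the log2 fold change stayed between -0.33 and -0.26 over the omission of each rat. Over the other tools, scalings and filters, the adjusted p lay between 4.64e-05 and 0.0426.

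Each of the single steps between the groups was smaller for Slc17a7. From Control to MS rats the log2 fold change was -0.13 (SE 0.0629, 95% interval -0.26 to 0.01), with an adjusted p of 0.499 in edgeR. From MS to MS+EA rats it was -0.18 (SE 0.0629, 95% interval -0.31 to -0.04), with an adjusted p of 0.303. Neither step passed the correction for the number of genes. The unadjusted p of the first step, 0.0656, fell to 0.0387 without Control rat A2 and to 0.0415 without MS+EA rat C3, and that of the second, 0.0146, rose to 0.0517 without MS rat B6 and to 0.0514 without MS+EA rat C3, all in edgeR. A comparison of 3 rats with 3 cannot give an exact two-sided permutation p below 0.1, and Slc17a7 had this value in all 3 comparisons.

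Slc17a8 encodes VGLUT3, found in scattered neurons that also use other transmitters. It was at 0.910, 2.56 and 1.37 CPM in Control rats, 1.40, 2.13 and 2.35 CPM in MS rats and 1.11, 1.81 and 2.54 CPM in MS+EA rats. The groups overlapped throughout, and the spread within a group was wider than any difference between the means. These levels rest on 16 to 42 reads per rat, and the log2 fold change of MS against Control rats, 0.28, had a 95% interval from -0.62 to 1.19. The interval held both a fall and a rise of over 1.5-fold. Counting alone gives a coefficient of variation of 15.4% to 25.0% at these counts, whereas the Control rats varied by 52.9%, so the spread between rats was wider than the counting error.

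**Figure D1:**
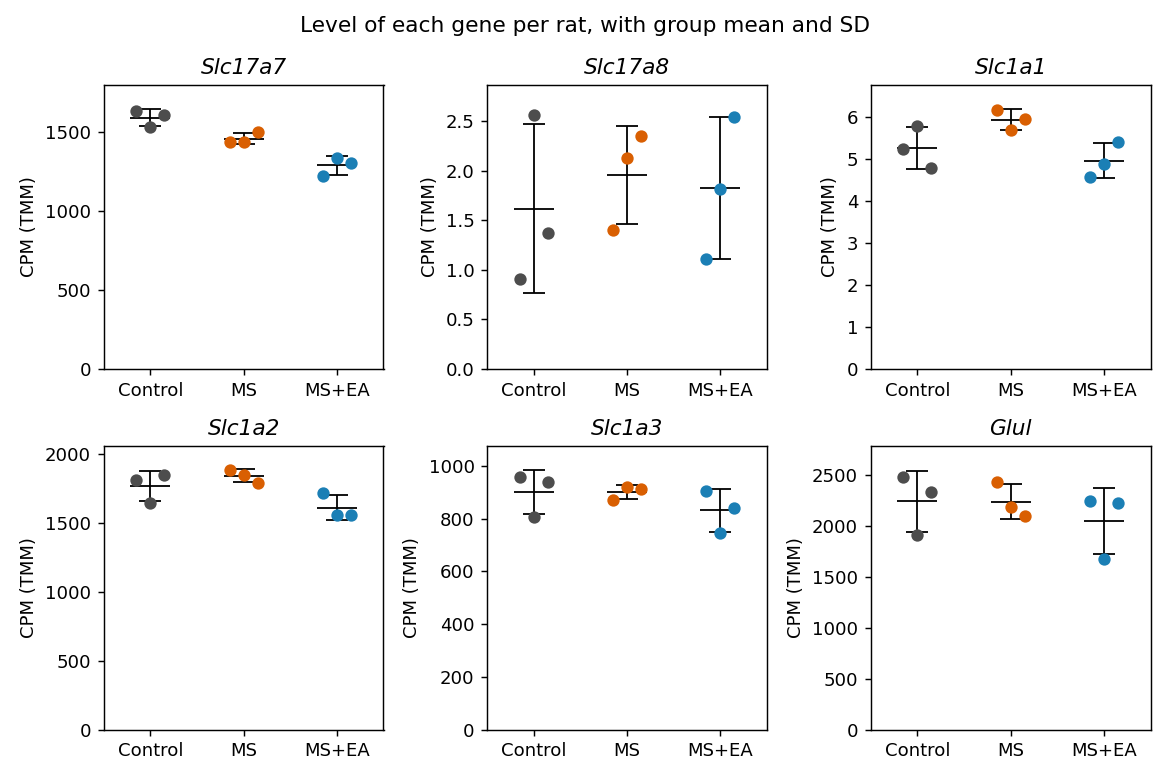
Levels in CPM of the 6 genes in each rat (points), with the mean (long bar) and SD (whiskers) of the 3 rats per group and linear axes that start at 0. Slc17a7 lay between 1532 and 1635 CPM in Control, 1436 and 1498 CPM in MS and 1225 and 1337 CPM in MS+EA rats without overlap, whereas the groups overlap for Slc17a8, Slc1a3 and Glul.

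Slc1a2 encodes GLT-1, the astrocyte transporter that carries most glutamate uptake in the forebrain. The Control rats had 1811, 1642 and 1842 CPM, the MS rats 1884, 1843 and 1790 CPM and the MS+EA rats 1712, 1557 and 1558 CPM. All MS+EA rats lay below all MS rats, while Control rat A2 lay among the MS+EA rats. The means were 1765 ± 108, 1839 ± 46.7 and 1609 ± 89.2 CPM.

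MS+EA rats had 0.875 times the Slc1a2 level of MS rats, a log2 fold change of -0.19 (SE 0.0694, 95% interval -0.34 to -0.04). The unadjusted p of edgeR was 0.0161 and the adjusted p 0.311, so the difference did not pass the correction. Without MS rat B3 or MS+EA rat C16 the unadjusted p was 0.0525 and 0.0568. Divided by total counts alone, MS+EA rat C3, at 1776 CPM, was above MS rat B6, at 1738 CPM, and the groups overlapped. MS and Control rats differed by 0.06 on the log2 scale (SE 0.0694, unadjusted p = 0.412 in edgeR), and MS+EA and Control rats by -0.13 (adjusted p = 0.279), where the unadjusted p of 0.0768 fell to 0.0276 without Control rat A2 and to 0.0291 without MS+EA rat C3.

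Slc1a3 encodes GLAST, the other astrocyte transporter. It was at 959, 805 and 939 CPM in Control, 872, 921 and 910 CPM in MS and 906, 746 and 840 CPM in MS+EA rats. The MS rats were the most alike and lay within the range of the Control rats. The log2 fold change of MS against Control rats was within 0.01 of 0, with a 95% interval from -0.18 to 0.18. Against either of the other groups the MS+EA rats had a log2 fold change of -0.12 (SE 0.0853), with an adjusted p of 0.599 against MS and 0.449 against Control rats in edgeR.

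Slc1a1 encodes EAAC1, the transporter of neurons, which takes up glutamate and cysteine. Its level was 5.25, 5.79 and 4.79 CPM in Control rats, 6.18, 5.69 and 5.95 CPM in MS rats and 4.58, 4.89 and 5.41 CPM in MS+EA rats. MS rats were all above MS+EA rats, and the Control rats spanned the gap between them. The log2 fold change of MS+EA against MS rats was -0.26 (SE 0.166, 95% interval -0.62 to 0.10), and its adjusted p was 0.545 in edgeR. Only 66 to 106 reads per rat were counted on Slc1a1. Whether the deposited counts cover all transcripts of a gene is not given in the sources used here, so the level and rank of Slc1a1 are those of this table and may not be its level in the tissue.

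Glul encodes glutamine synthetase, the astrocyte enzyme that closes the cycle. Among the Control rats it was at 2483, 1907 and 2327 CPM, among the MS rats at 2433, 2187 and 2096 CPM and among the MS+EA rats at 2246, 1676 and 2225 CPM. Rats A2 and C10 were the lowest of their groups, as they also were for Slc1a2 and Slc1a3. The means of Control and MS rats were both 2239 CPM, with SDs of 298 and 174, and that of MS+EA rats was 2049 ± 323 CPM. The 95% interval of the log2 fold change of MS against Control rats ran from -0.26 to 0.26, and that of MS+EA against MS rats, with an estimate of -0.13, from -0.39 to 0.13. Without MS+EA rat C10 this estimate was -0.00.

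**Figure D2:**
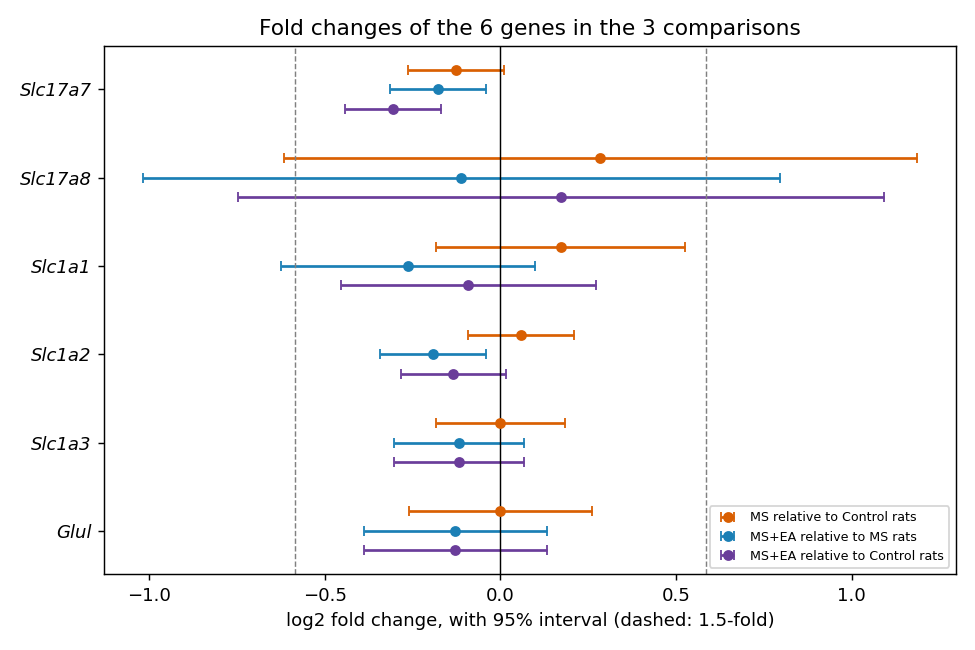
Log2 fold changes of the 6 genes with 95% intervals from the quasi-likelihood fit, in 3 comparisons marked by colour, with dashed lines at a 1.5-fold change. The intervals of Slc17a7 and Slc1a2 for MS+EA against MS rats (-0.31 to -0.04 and -0.34 to -0.04) and that of Slc17a7 for MS+EA against Control rats (-0.44 to -0.17) do not reach 0, and the widest intervals are those of Slc17a8.

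Counted together, 0 of the 6 genes were called in MS against Control rats, where 0.0238% of all genes tested were called, and 0 had an unadjusted p under 0.05 in edgeR, where 10.6% of all genes did. By the Wald test of DESeq2, 0 were called and 1, Slc17a7, had an unadjusted p under 0.05. In edgeR this number was also 1 with total counts, in the 6 rats compared alone, without Control rat A2 and without MS+EA rat C3. The log2 fold change was positive in 5 genes and negative in 1, but those of Slc1a3 and Glul lay within 0.01 of 0 and were negative with DESeq2 and with the RLE, total count and upper quartile scalings. Of the 6, 1 gene, Slc17a7, had groups that did not overlap (17.6% of all genes).

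For MS+EA against MS rats, 0 of the 6 were called (0.0178% of all genes) and 2, Slc17a7 and Slc1a2, had an unadjusted p under 0.05 in edgeR (12.4% of all genes), and DESeq2 gave the same number. This number was 1 without MS rat B3 or B6 or MS+EA rat C3 or C16. All 6 estimates were negative, with a median log2 fold change of -0.15 beside 0.00 for all genes tested. In 3 genes, Slc17a7, Slc1a1 and Slc1a2, the groups did not overlap (17.9% of all genes). The estimate of Slc17a8 turned positive, to 0.16, without MS+EA rat C3.

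For MS+EA against Control rats, 0 of the 6 were called (1.37% of all genes). One of them, Slc17a7, had an adjusted p under 0.05 at any fold change (5.4% of all genes) and was also the 1 gene with an unadjusted p under 0.05 (22.5% of all genes) and the 1 gene without overlap (25.9% of all genes). DESeq2 called 0 and gave 2 genes an unadjusted p under 0.05, and in edgeR there were 3 such genes without Control rat A2 and 2 without MS+EA rat C3. The median log2 fold change was -0.12, beside 0.01 for all genes tested. The 3 comparisons share groups of rats, and those with the Control rats or with the MS rats in common are not independent.

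The balance between members was described by ratios of CPM within each rat, without a test. For Slc17a7 to Slc1a2, Control rats had 0.903, 0.933 and 0.872, MS rats had 0.763, 0.781 and 0.837, and MS+EA rats had 0.716, 0.859 and 0.837. The Control rats were above all separated rats, with or without EA, and the MS and MS+EA rats overlapped. The ratio of the astrocyte transporters, Slc1a2 to Slc1a3, was 1.96 ± 0.0752, 2.04 ± 0.104 and 1.94 ± 0.125 in Control, MS and MS+EA rats, and that of Glul to Slc1a2 overlapped in the same way.

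Across the 9 rats, the log2 CPM of Slc1a3 and Glul had a Pearson r of 0.84, that of Slc1a2 and Slc1a3 0.79 and that of Slc1a2 and Glul 0.70. Slc17a7 and Slc1a2 had an r of 0.54, and Slc17a8 was negatively related to Slc1a2, Slc1a3 and Glul (-0.45, -0.50 and -0.54). These are descriptions over rats of all groups that share each library's depth and cell mixture, and they were not tested.

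Genes whose log2 CPM over the 9 rats was most like that of a member were sought among 13353 genes. The values given are the highest of these many correlations, over rats of all groups, and were not tested. Even Slc17a8, on 16 to 42 reads per rat, reached 0.97. Slc17a7 was most like Mtch1, a mitochondrial membrane protein, with r = 0.98, followed by Pnmal1 and Irgq, both with 0.98. Slc1a2 was most like Rims4, a presynaptic active zone protein, and Psd2, both with 0.97. Glul was most like Epas1, a hypoxia-responsive transcription factor, with 0.98, and Acsbg1, an acyl-CoA synthetase and astrocyte marker, also with 0.98. For Slc1a3 the nearest genes were Cetn4 (0.95), Apln and Kcnh2 (both 0.93), for Slc1a1 Kbtbd4 and Uprt (both 0.97) and for Slc17a8 Etf1 (0.97). By Spearman's rho, Mtch1 and Pnmal1 shared rank 1 for Slc17a7, and Rims4 shared rank 2 for Slc1a2 with other genes. Psd2 had rank 108 for Slc1a2, Cetn4 rank 131 for Slc1a3 and Epas1 rank 18 for Glul. Of the 3 nearest genes by Pearson r, the first 3 by rho held 2 for Slc17a7 and Slc1a1 and 1 for Slc17a8. They held 0 for Slc1a2, Slc1a3 and Glul.

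A list of 25 further genes of glutamate transport and the cycle was examined, of which 24 were tested. The remaining one, Slc1a7, had at most 1 read per rat. In each of the 3 comparisons 0 of these genes were called in edgeR, and 0 had an adjusted p under 0.05. Before correction, 1 was higher and 1 lower in MS against Control rats, 1 higher and 2 lower in MS+EA against MS rats and 2 higher and 4 lower in MS+EA against Control rats, where 10.6%, 12.4% and 22.5% of all genes tested had an unadjusted p under 0.05. These counts are near those shares. The 2 genes of the first comparison became 1 without Control rat A1 or MS rat B6 and 4 without MS+EA rat C3, and the 3 of the second became 5 without MS rat B4 or MS+EA rat C10 and 6 without C3. The estimates were positive in 9, 7 and 7 of the 24, beside 49.7%, 50.2% and 50.9% of all genes, with median log2 fold changes of -0.04, -0.09 and -0.11.

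Slc17a6, the gene of the subcortical vesicular transporter VGLUT2, was lowest in the MS rats, unlike Slc17a7. Its level was 16.4, 16.1 and 8.39 CPM in Control rats, 5.48, 8.76 and 8.24 CPM in MS rats and 20.2, 11.8 and 10.6 CPM in MS+EA rats. MS rats were below all MS+EA rats but overlapped Control rats through A6. The log2 fold change was -0.87 from Control to MS rats (SE 0.291, adjusted p = 0.284 in edgeR) and 0.92 from MS to MS+EA rats (SE 0.293, adjusted p = 0.260). It passed both limits only when every gene with at least 1 count was kept, with adjusted p of 0.0200 and 0.0266.

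Slc7a11, the xCT subunit of the cystine-glutamate exchanger that exports glutamate from astrocytes, had 134, 124 and 140 CPM in Control, 124, 228 and 168 CPM in MS and 186, 172 and 281 CPM in MS+EA rats. All MS+EA rats were above all Control rats, and the MS rats ranged across both. The log2 fold change of MS+EA against Control rats was 0.68 (SE 0.201, adjusted p = 0.0664 in edgeR). It was called by the likelihood ratio test (adjusted p = 0.0174), with every gene of at least 1 count (0.000708), in the 6 rats compared alone (0.0318) and without MS rat B3 (0.0385) or B4 (0.0330). The other subunit of the exchanger, Slc3a2, which also pairs with other amino acid transporters, had a negative estimate of -0.39 (adjusted p = 0.0785).

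Further genes had an unadjusted p under 0.05 without passing the correction in edgeR. Got2, the mitochondrial aspartate aminotransferase, was at 188 ± 8.53 CPM in Control, 182 ± 5.21 in MS and 162 ± 0.912 in MS+EA rats (adjusted p = 0.0606 for MS+EA against Control). Pc, the pyruvate carboxylase by which astrocytes make new glutamate carbon, had a log2 fold change of -0.35 in the same comparison (adjusted p = 0.0624). Slc1a4, a transporter of neutral amino acids including serine, had -0.39 (adjusted p = 0.0720), and Slc38a2, a glutamine transporter, 0.35 (adjusted p = 0.186).

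The most counted genes of other roles that are named here had an unadjusted p over 0.05 in all 3 comparisons. Slc38a1, a neuronal glutamine transporter, had 551 ± 19.7, 534 ± 31.5 and 496 ± 30.3 CPM in Control, MS and MS+EA rats, with all MS+EA rats below all Control rats. Glud1, the glutamate dehydrogenase, had 412 ± 31.6, 400.0 ± 22.6 and 378 ± 29.7 CPM, and Slc25a12, a mitochondrial aspartate-glutamate carrier, 142 ± 4.95, 138 ± 7.86 and 134 ± 8.37 CPM.

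**Figure D3:**
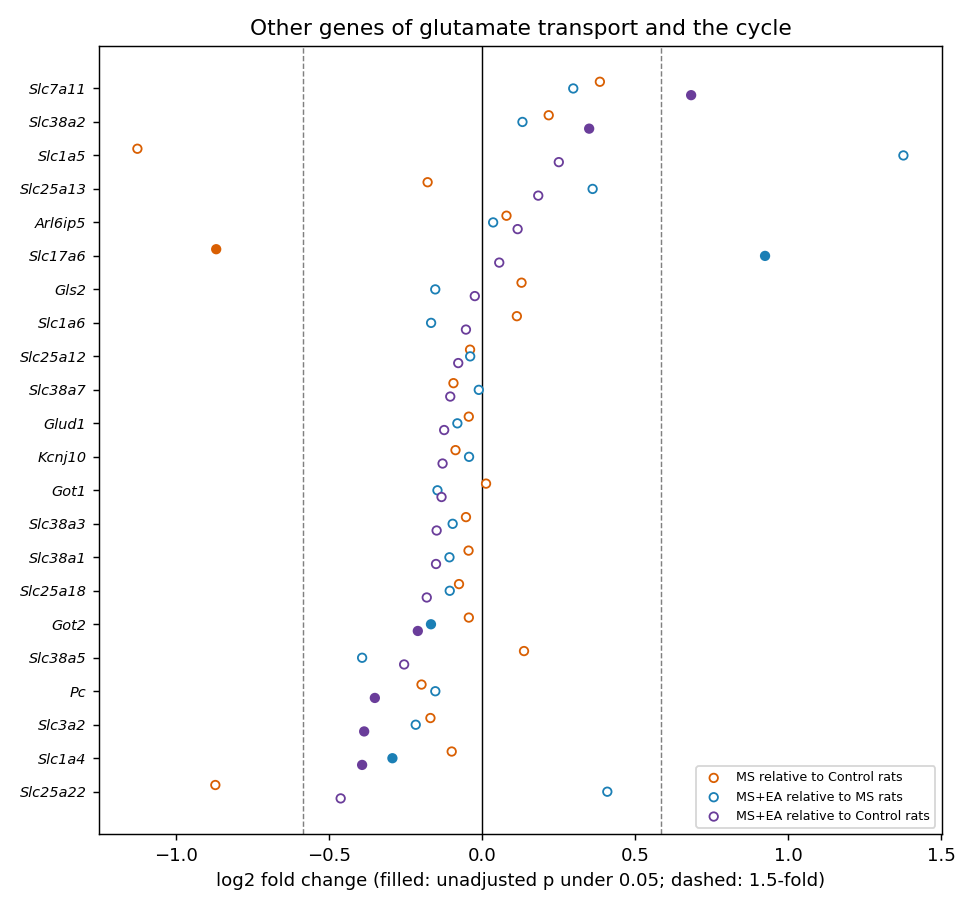
Log2 fold changes of 22 of the further genes tested, 1 row per gene, in 3 comparisons marked by colour, where filled points have an unadjusted p under 0.05 and dashed lines mark a 1.5-fold change. The largest estimates are those of Slc1a5, at -1.13 in MS against Control and 1.38 in MS+EA against MS rats, on 4 to 64 reads per rat. Slc17a6 is at -0.87 and 0.92 in the same comparisons. Slc25a22 is at -0.87 in MS against Control rats and Slc7a11 at 0.68 in MS+EA against Control rats. Most other genes lie within the dashed lines, and 0 passed both limits.

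In RNA of whole cortex, fewer cells of a type and less RNA per cell cannot be told apart, so markers of the cell types were measured beside the members. The summed level of 15 astrocyte markers was 3648 to 4567 CPM in Control, 4093 to 4339 CPM in MS and 3415 to 4355 CPM in MS+EA rats. Rats A2 and C10 were again the lowest of their groups. Relative to this sum, Slc1a2 was 0.439 ± 0.0379, 0.438 ± 0.0193 and 0.406 ± 0.0492 in Control, MS and MS+EA rats, and for Slc1a2, Slc1a3 and Glul alike the ratio overlapped between all groups. In MS+EA against MS rats 10 of the 15 markers had negative estimates, with a median log2 fold change of -0.14, beside -0.19, -0.12 and -0.13 for Slc1a2, Slc1a3 and Glul, and the part of the markers in these values was not tested. All 15 astrocyte markers were tested, 0 were called, and 1 of them, Ntsr2, had an adjusted p under 0.05 at a fold change under 1.5 in MS+EA against Control rats (log2 fold change -0.53, adjusted p = 0.0137 in edgeR). Ntsr2 was called without Control rat A2 (adjusted p = 0.0252) or MS+EA rat C3 (0.0137). In MS+EA against Control rats Id4 was at 0.40, Slc4a4 at 0.25 and Fgfr3 at -0.35 (adjusted p = 0.0566, 0.102 and 0.0810 in edgeR). Of the 15 markers, 8 had positive and 7 negative estimates there. Slc4a4 was also at 0.23 in MS against Control rats (adjusted p = 0.332 in edgeR).

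The excitatory neuron markers bear on Slc17a7, which these cells express. The summed level of 12 such markers was 4097 to 4738 CPM in Control, 4329 to 4384 CPM in MS and 3699 to 4032 CPM in MS+EA rats. The MS+EA rats were below both other groups in this sum, but this rested on Camk2a, its largest part. Without Camk2a, an omission chosen after the data were seen, the other 11 markers summed to 2129 to 2197 CPM in Control, 2129 to 2325 CPM in MS and 1832 to 2255 CPM in MS+EA rats, and all groups overlapped. Camk2a had a log2 fold change of -0.36 in MS+EA against Control rats (adjusted p = 0.0387 in edgeR), and Fezf2, a gene of deep-layer neurons, -0.52 (adjusted p = 0.0363). Fezf2 was called without MS+EA rat C16 (adjusted p = 0.0340). In the same comparison Tbr1, another cortical excitatory marker, was at -0.01, and 8 of the 12 had negative and 4 positive estimates, with a median of -0.08. Neurod2 was at -0.25 in MS against Control rats and Nrgn at -0.20 in MS+EA against MS rats (adjusted p = 0.351 and 0.370). The part of the excitatory markers in the level of Slc17a7 was not tested.

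Of the general neuron markers, Tubb3 had a log2 fold change of -0.32 in MS+EA against Control rats (adjusted p = 0.0252 in edgeR), and Nefm, named after its value was seen, 0.38 (adjusted p = 0.0960). Of the 8 markers, 4 had positive and 4 negative estimates there, and their sum overlapped between these groups. It was 5305 to 5859 CPM in MS rats, above the 5010 to 5171 CPM of Control rats. Its largest part, Snap25, was at 2152 ± 29.5 CPM in Control and 2570 ± 175.5 CPM in MS rats. This gene, named after its value was seen, had a log2 fold change of 0.26 (adjusted p = 0.390 in edgeR). From Control to MS rats, 4 of the 8 markers had positive and 4 negative estimates. Markers of subcortical regions, where Slc17a6 is mostly expressed, summed to 131 to 142 CPM in Control, 135 to 149 CPM in MS and 140 to 171 CPM in MS+EA rats, with overlap. The oligodendrocyte markers were the most variable, at 2186 to 3339 CPM in Control, 1922 to 2993 CPM in MS and 2112 to 4321 CPM in MS+EA rats. All groups overlapped in this sum. Of the 8 markers, 1 had a positive estimate in MS against Control rats and 8 in MS+EA against MS rats. Of all genes tested, 49.7% and 50.2% had positive estimates in these comparisons. Endothelial markers were at 109 to 124 CPM in Control and 140 to 159 CPM in MS rats, without overlap. They were at 119.5 to 143.1 CPM in MS+EA rats, which overlapped both other groups. Of all single genes tested, 17.6% had no overlap between Control and MS rats. No gene of these lists, nor of the interneuron, oligodendrocyte precursor and microglia lists, passed both limits in edgeR, except that the oligodendrocyte gene Ermn did so in MS+EA against Control rats without rat C10 (adjusted p = 0.0304) or with every gene of at least 1 count (0.0145). Their part in the levels of the 6 genes was not tested.

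**Figure D4:**
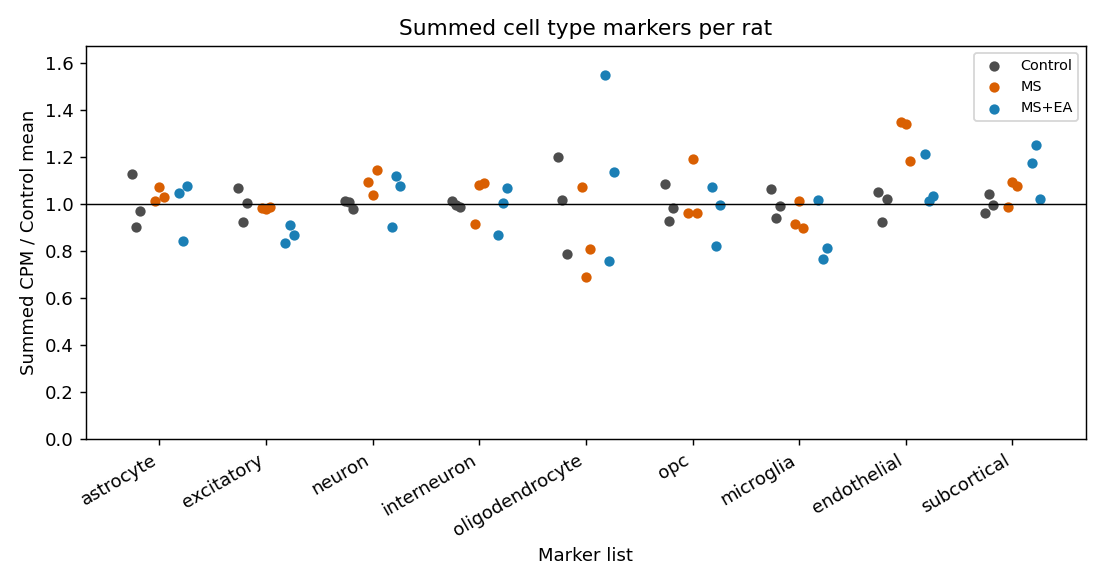
Summed CPM of each marker list per rat, divided by the mean of the Control rats (line at 1), with 3 points per group marked by colour and a linear axis from 0. The MS+EA rats lie below the Control and MS rats for the 12 excitatory neuron markers (3699 to 4032 CPM against 4097 to 4738 and 4329 to 4384 CPM). Without Camk2a, an omission chosen after the data were seen, the groups overlap (1832 to 2255 against 2129 to 2197 and 2129 to 2325 CPM). All 3 groups overlap for astrocyte markers (3648 to 4567, 4093 to 4339 and 3415 to 4355 CPM).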

How the data were processed

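Reads of 9 rats were filtered with FastQC and mapped to Rnor 6.0 with HISAT2 2.0.4 by the authors, who deposited raw read counts per gene. The counting program, strand setting and treatment of reads with several locations are not given in the sources used here. The deposited counts were analysed with edgeR 4.0.16 in R 4.3.3: TMM, filterByExpr (minimum count 10), a quasi-likelihood F test in one model of all rats, and Benjamini-Hochberg adjustment over 16837 genes. A call needed both a fold change over 1.5 and an adjusted p under 0.05. The EBSeq test of the study was not run. DESeq2 1.42.0, limma 3.58.1, other scalings and filters and the omission of each rat were alternatives. Nothing says that rats of a group came from separate litters, so p-values measure the spread between these rats. The 6 genes and all lists were chosen with earlier results of these data known. Named genes of the lists are those called, up to 8 cycle genes and 4 astrocyte and 4 excitatory markers with the smallest unadjusted p under 0.05, and the most counted gene of each role. Slc1a5, Slc25a22, Tbr1, Tubb3, Nefm and Snap25 fall outside this rule and were named with their values known. The procedures were tested on simulated data with planted changes larger than those estimated for the 6 genes. That test cannot show whether changes of their size would be found. Reads of Glul and its pseudogene could be split by the counting. Some genes of the lists are counted in the totals but not reported here by name.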

Additional observations from a re-analysis of the deposited data

How the results depend on the processing

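In each of the 3 comparisons the number of the 6 genes called stayed at 0 under every alternative, except that 1, Slc17a7, was called in MS+EA against Control rats when no fold change threshold was set. The sign of estimates near 0 depended on the settings. In MS against Control rats the log2 fold change of Slc1a3 was -0.005406 with DESeq2, -0.005398 with DESeq2's size factors, -0.01382 with total counts, -0.002481 with upper quartile scaling and -0.008527 with every gene of at least 1 count. For Glul the same settings gave -0.005136, -0.005142, -0.01232, -0.001384 and -0.008511. Leaving out each rat in turn gave -0.08007 to 0.04615 for Slc1a3 and -0.1081 to 0.08006 for Glul in this comparison, and for Slc17a8 -0.009381 to 0.7776 in MS against Control, -0.4178 to 0.156 in MS+EA against MS and -0.1339 to 0.6754 in MS+EA against Control rats. The cause was not tested.

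The mean log2 difference of the summed excitatory markers between MS+EA and Control rats was -0.20 and, without Camk2a, -0.05. Camk2a was left out after the data were seen.

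Over all genes, the 4 calls of MS against Control rats became 3 with limma-trend, 70 with DESeq2, 119 with the likelihood ratio test, 207 with every gene of at least 1 count and 11 in the 6 rats alone. The 3 calls of MS+EA against MS rats became 37, 49 and 72 under DESeq2, the likelihood ratio test and the at least 1 count filter, 1 in the 6 rats alone, 1 with bias-adjusted deviances (added after the data were seen) and 0 with at least 10 counts in every rat. The 230 calls of MS+EA against Control rats became 418 with the likelihood ratio test, 469 with at least 1 count and 910 with no fold change threshold. Without 1 rat they ranged from 2 to 22, from 1 to 4 and from 71 to 304.

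Slc17a8 and Slc1a1 rest on 16 to 42 and 66 to 106 reads per rat, and for Slc17a8 the spread between rats exceeded the counting error. No paired analysis was possible because the groups share at most 1 replicate number and hold different animals.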
